A study of Homo sapiens with 12 samples.

Results

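PANC1 cells, an established line of human pancreatic ductal adenocarcinoma, were compared after 96 h and after 12 h in 10 uM ICG-001. The comparison took, for each gene row of an expression array, the log2 ratio of the 96 h signal to the 12 h signal, and kept the 17896 of 34687 rows that lay above the background limit in at least 1 of these columns. The same ratio in cells kept in 0.05% DMSO, the solvent, stood beside it, so that a late change in drug could be set against the change that came with time in culture. The study treated PANC1 and the colon cancer line HCT116 with DMSO, ICG-001 or C646, the drugs at 10 uM, for 12 or 96 h, and measured RNA on Illumina BeadChips. The value table gave 1 column for each of the 12 groups, in which the authors had averaged 2 arrays (3 for PANC1 at 12 h in ICG-001). Values of single arrays were not used, so the sizes below have no replicate check, no error and no test.

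ICG-001 is a small molecule that binds CBP (CREBBP) and blocks its contact with β-catenin (CTNNB1), whereas C646 inhibits the acetyltransferase activity of CBP and of its paralog p300 (EP300). Both proteins serve as co-activators brought to genes by many DNA-bound factors, among them TCF7L2 with β-catenin in the WNT pathway, NF-kB and interferon regulatory factors, SMADs, SREBPs and ATF4. Genes that answer first are often the direct ones, and a response read days later also holds what follows from them. By the study's methods, cells for the 96 h columns were seeded more sparsely than those for the 12 h columns, were passaged during treatment and received fresh medium and drug daily. Time, cell density and passage therefore cannot be told apart within a ratio. The schedule was common to the drug and the DMSO ratio. Density at harvest and the number of passages were not given for each treatment and may differ between them. In bulk RNA, fewer cells of a type and less RNA per cell cannot be told apart either.

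The background limit, the peak of a column's log2 signals plus 2.33 SD of the values below it, lay at a signal of 134.6 in the ICG-001 12 h column and 135.4 in the ICG-001 96 h column, and reached 138 in DMSO 96 h. At the edge, SNORD12B entered with 134.59 at 12 h and 126 at 96 h, and OLA1 stayed out with 132 at 12 h and 135.39 at 96 h. Over 15153 rows under the limit in all 6 PANC1 columns, the SD of the log2 ratio was 0.063 in ICG-001 and 0.071 in DMSO, and 0 of them reached a ratio of 1.5. Of 6 ductal markers 5 lay above the limit, and KRT8, KRT19 and SOX9 had signals of 5080.3, 7857 and 1462 in ICG-001 at 12 h. Of 8 acinar markers 7 and of 6 endocrine markers 5 were under the limit in every PANC1 column, as were all 5 endothelial markers, 4 of 6 fibroblast markers and 4 of 6 leukocyte markers, PTPRC, CD3E and LYZ among them. The other leukocyte markers were CD14, close to the limit at 149 and 142 in ICG-001, and CD68, a lysosomal protein, with 2983 and 2747. The DMSO 12 h column stood further from the drug columns than DMSO 96 h did. It differed from ICG-001 12 h at 1.5-fold in 434 rows, whereas DMSO 96 h differed from ICG-001 12 h in 228. The DMSO ratio rests on that column and the ICG-001 ratio does not. A probe row for the large ribosomal RNA, RNA28SN5, had signals of 438 at 12 h and 2841 at 96 h in ICG-001, 134 and 173 in DMSO and 509 and 1418 in C646, and a row for the small ribosomal RNA, RNA18SN5, had 1340.3 and 1257 in ICG-001 and 141 and 732 in DMSO. Such rows differed between columns apart from any messenger RNA, and their part in the results below was not tested.

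Between 12 and 96 h in ICG-001, 702 of 17896 rows (3.92%) changed by at least 1.5-fold, with 393 higher (2.2%) and 309 lower (1.73%) at 96 h. At 2-fold, 61 rows were higher and 31 lower. The median log2 ratio over all rows compared was -0.01, close to 0. DMSO moved fewer rows over the same span: 217 of 16575 (1.31%) changed 1.5-fold, 162 higher (0.977%) and 55 lower (0.332%). Of the 393 rises in ICG-001, 48 were shared with DMSO at 1.5-fold, 115 were partly shared (1.2 to 1.5-fold in the same direction), 215 were flat in DMSO (within 1.2-fold) and 15 were opposed (at least 1.2-fold the other way). The 309 falls divided into 21 shared, 103 partly shared, 159 flat and 26 opposed. Changes that DMSO also made were thus 9.83% of those in ICG-001 at the same threshold, and 31.8% of the 217 rows that DMSO changed. Being flat in DMSO was the usual state of a row: 2535 of 16575 changed there by at least 1.2-fold. The size of the flat class therefore does not by itself mark its changes as due to the drug. The difference of the ICG-001 and DMSO log2 ratios reached 1.5-fold in 674 of 18672 rows (3.61%), 324 above 0 (1.74%) and 350 below 0 (1.87%). Across the 17896 rows, the ICG-001 and DMSO ratios had a Pearson r of 0.35 and a Spearman rho of 0.31. They share no column, but they share the line, the array design and the culture schedule, and genes are not independent replicates.

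**Figure D1:**
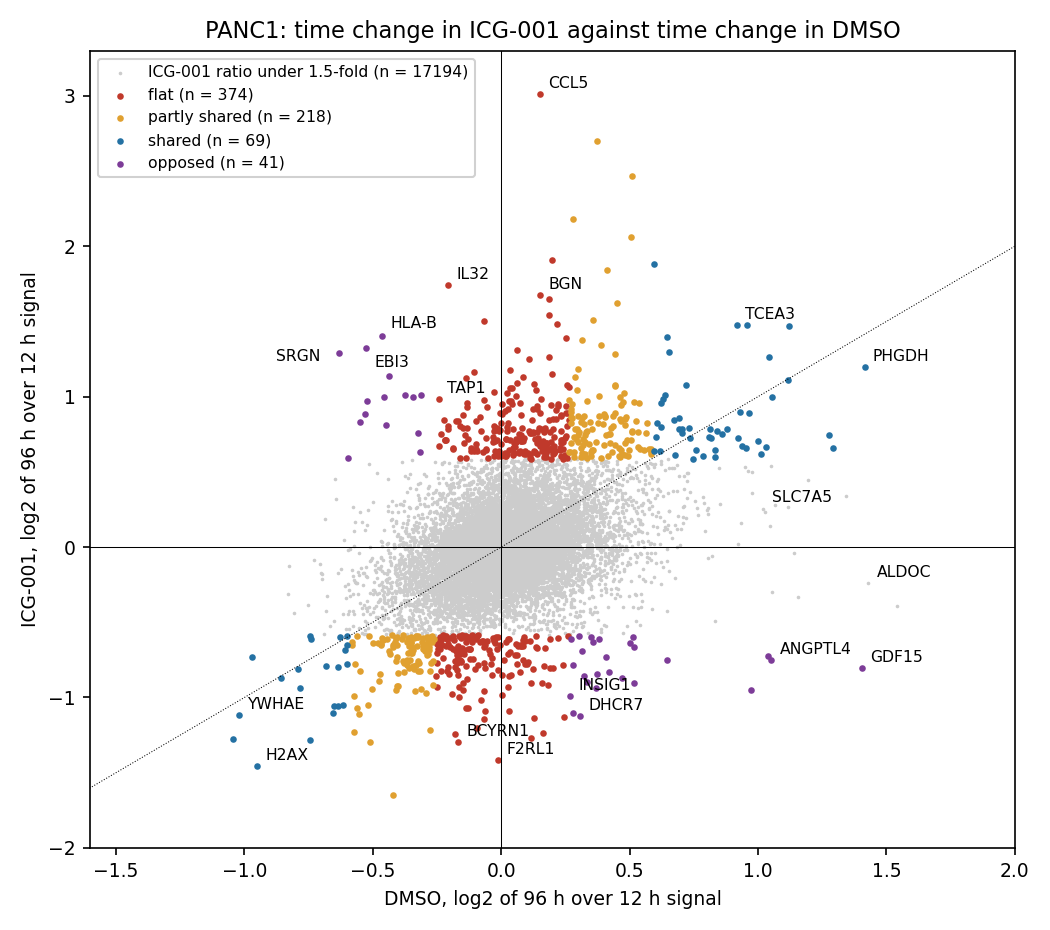
Log2 ratio of 96 h over 12 h signal in ICG-001 (vertical) against the same ratio in DMSO (horizontal) for 17896 gene rows in PANC1, each point 1 row, coloured by class, with the dotted line at equal ratios. The 374 rows flat in DMSO form bands above and below the centre, CCL5 stands highest at 3.01, and GDF15 and ANGPTL4 lie low on the right, where DMSO rose and ICG-001 fell.

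The largest rise of all rows compared was CCL5, a chemokine that draws T cells and monocytes. Its signals were 464 at 12 h and 3740.2 at 96 h in ICG-001, 399.7 and 444 in DMSO and 615 and 952 in C646. The ICG-001 96 h column stood alone, 8.05-fold above ICG-001 12 h (log2 3.01), while the DMSO log2 ratio was 0.15. IL32, an inflammatory cytokine, had 267 at 12 h and 892 at 96 h in ICG-001, 232 and 201 in DMSO and 193 and 197 in C646, a rise of log2 1.74 beside -0.21 in DMSO. At 12 h the drug and DMSO columns of both genes lay close together, with log2 ratios of ICG-001 to DMSO of 0.22 and 0.20, and at 96 h they lay 3.07 and 2.15 apart.

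Among the other large rises that were flat in DMSO, BGN, the small matrix proteoglycan biglycan, went from 207 to 662 in ICG-001, against 157 to 174 in DMSO and 221 to 242 in C646 (log2 1.68 in ICG-001). NIBAN1, a stress-responsive regulator of translation, went from 369.6 to 1079 in ICG-001, against 211 to 239.7 in DMSO and 184 to 259 in C646, and its other row on the array rose by log2 1.35. CHST13, a chondroitin sulfotransferase, rose by log2 1.48, and SELENOM, a selenoprotein of the endoplasmic reticulum, by 1.39. BACE2, an aspartyl protease, ZNF185, an actin-associated LIM protein, and CYB5A, the cytochrome b5 that feeds electrons to lipid desaturases, rose by log2 1.31, 1.26 and 1.18. CKMT1A, a mitochondrial creatine kinase, rose by log2 1.25 from a signal of 162; its near-identical copy CKMT1B may share the probe. DMSO log2 ratios of these 8 genes lay between 0.03 and 0.25.

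**Figure D2:**
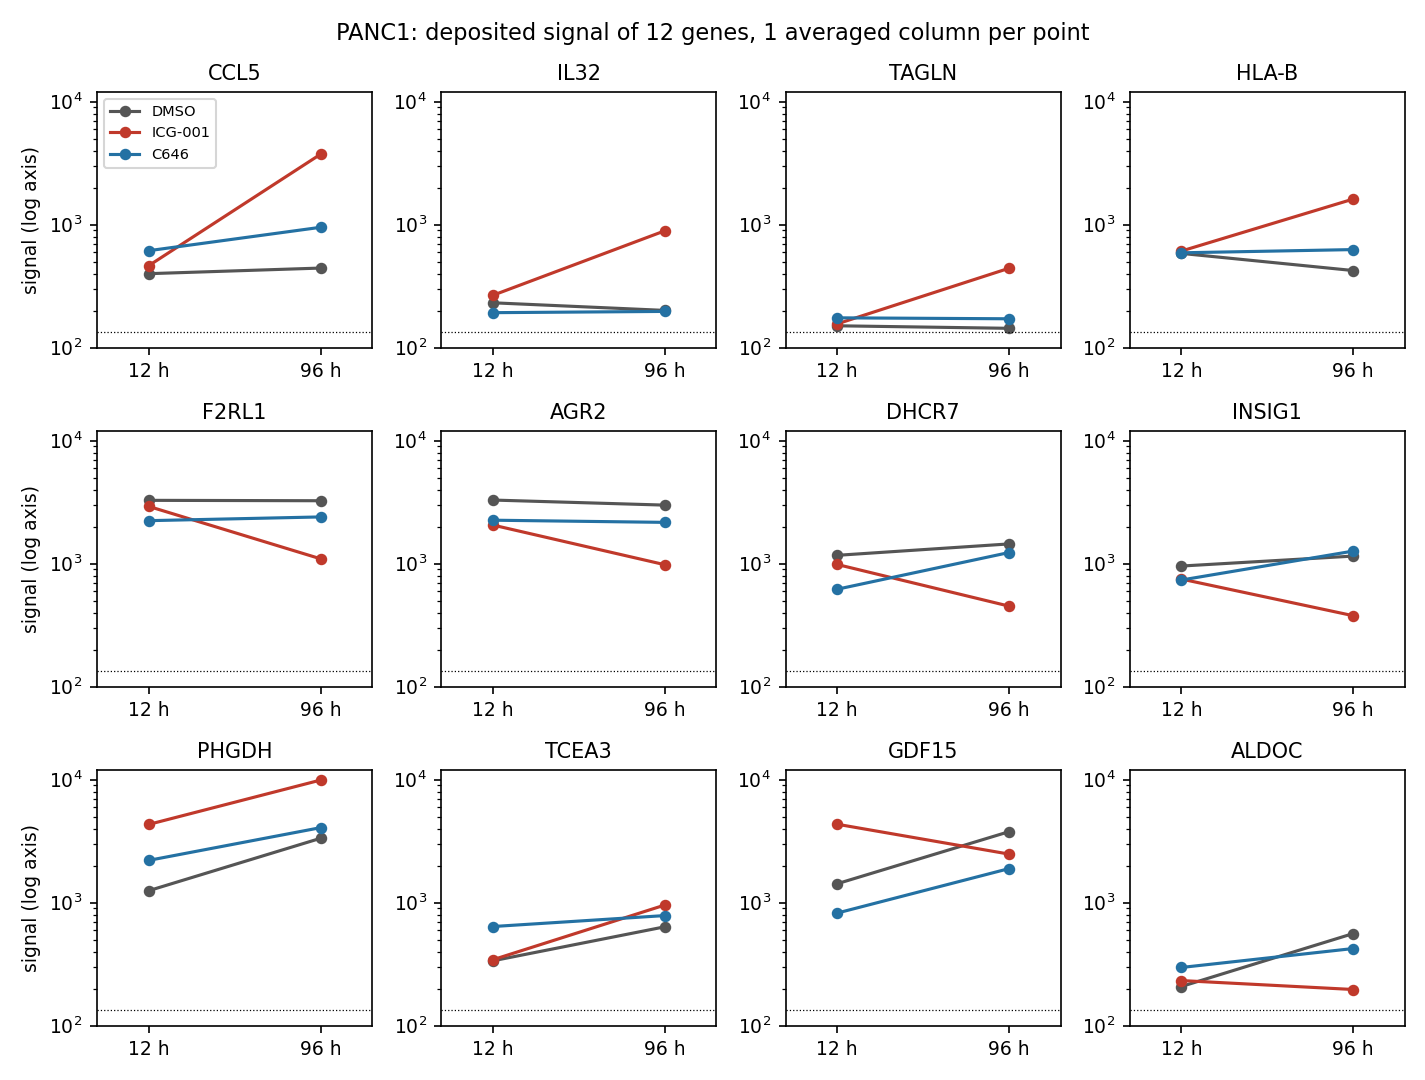
Signal on a log axis at 12 and 96 h in DMSO, ICG-001 and C646 for 12 genes in PANC1, each point 1 averaged column, with a dotted line at the background limit of the ICG-001 12 h column. CCL5, IL32, TAGLN and HLA-B part from the other columns at 96 h in ICG-001 alone, F2RL1, AGR2, DHCR7 and INSIG1 fall there, PHGDH and TCEA3 are higher at 96 h in every treatment, and GDF15 crosses from the highest 12 h signal to a value below DMSO at 96 h.

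Several genes of class I antigen presentation rose late in ICG-001. These genes cut, transport and display peptides to CD8 T cells: the immunoproteasome subunits PSMB8, PSMB9 and PSMB10 cut proteins, TAP1 and TAP2 pump the peptides into the endoplasmic reticulum, and HLA heavy chains with B2M carry them to the surface. This list was written after the values had been seen and supports nothing by itself. Of its 17 rows above the limit, 6 rose and 2 fell (47.1% against 3.92% of all rows), and 14 lay above 0, with a median log2 ratio of 0.44 in ICG-001, -0.09 in DMSO and 0.06 in C646. HLA-B, a heavy chain, had 611 at 12 h and 1616 at 96 h in ICG-001, 584 and 424 in DMSO and 591 and 628 in C646. Its 96 h signal in ICG-001 was 2.65-fold its 12 h signal, and in DMSO the signal was lower at 96 h (log2 -0.46). TAP1 had 2324 at 12 h and 4601 at 96 h in ICG-001, 1891 and 1597 in DMSO and 2077 and 2156 in C646, a rise of log2 0.99. PSMB8 and PSMB9 rose by log2 1.01 and 0.98, HLA-C by 0.71 and HLA-F by 0.61; HLA genes are alike in sequence and their probes may share targets. B2M, TAP2 and TAPBP had log2 ratios of 0.37, 0.48 and 0.50, under the threshold. The 2 rows of the list that fell were the chaperones CALR and CANX.

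The bases just upstream of the start sites of TAP1, HLA-F and IFIH1, a sensor of viral RNA that also rose, are shown as rises that hold matches to GAAANNGAA, a short form of the interferon response element. IFIH1 is on no list, and both it and the motif were chosen after the values were seen. Capitals mark matches on either strand, and overlapping matches run together. Each stretch holds the 180 bases before the start in RefSeq's GRCh38.p14, written along the gene's strand.
TAP1: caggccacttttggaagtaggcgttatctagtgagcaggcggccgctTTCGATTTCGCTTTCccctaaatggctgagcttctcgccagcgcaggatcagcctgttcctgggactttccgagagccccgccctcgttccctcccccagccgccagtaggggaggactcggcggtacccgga
HLA-F: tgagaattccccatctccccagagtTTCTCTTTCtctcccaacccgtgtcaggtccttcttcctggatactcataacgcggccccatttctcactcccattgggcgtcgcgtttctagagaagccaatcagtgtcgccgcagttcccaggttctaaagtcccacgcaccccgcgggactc
IFIH1: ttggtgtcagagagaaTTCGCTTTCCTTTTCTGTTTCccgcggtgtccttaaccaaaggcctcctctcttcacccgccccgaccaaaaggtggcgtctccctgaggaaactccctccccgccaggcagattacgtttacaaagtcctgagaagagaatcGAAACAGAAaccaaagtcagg
TAP1 lies at chr6:32853705-32853884 (minus strand), HLA-F at chr6:29723254-29723433 (plus strand) and IFIH1 at chr2:162318685-162318864 (minus strand). TAP1 had 2 overlapping matches, HLA-F 1 and IFIH1 4. In windows of 250 bases, 6 of the 15 class I promoters with a sequence (40.0%) and 1927 of all 27305 promoters (7.06%) held the motif. Most class I rises had no exact match in their own 180 bases: HLA-B, HLA-C, PSMB8 and PSMB9 had 0. The PSMB9 stretch, chr6:32854012-32854191 on the plus strand, lies close to that of TAP1 on the minus strand. Near-matches were not counted. TAP2, TAPBP, B2M and PSMB10, which were under the threshold, each had at least 1. A match is a run of letters and not a measured binding site. IFIH1 itself had 403 at 12 h and 803 at 96 h in ICG-001, 401 and 316 in DMSO and 328 and 419.9 in C646, with log2 ratios of 1.00 in ICG-001 and -0.34 in DMSO.

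Other interferon-stimulated genes were mixed. Of 19 rows above the limit, 5 rose and 0 fell (26.3%, against 3.92% of all rows), and the median log2 ratio was 0.28 beside -0.00 in DMSO and 0.22 in C646. Those that rose included PSMB9, which is also on the class I list, and IFI6, an interferon-induced mitochondrial protein (log2 0.97). The others were the transcription factors IRF1 (0.89) and IRF9 (0.69) and the antiviral GTPase MX1 (0.75). Of the 19 rows, 2 had an ICG-001 ratio 1.5-fold or more above the DMSO ratio, and 1 had it as far below. IRF1 had already stood above DMSO at 12 h, with signals of 736 at 12 h and 1363 at 96 h in ICG-001, 217 and 422 in DMSO and 473 and 613 in C646, and it rose in DMSO as well. IFITM1, a membrane protein that limits viral entry, went the other way, from 634 to 483 in ICG-001, against 643 to 1868 in DMSO and 627 to 948 in C646. ISG15 had a log2 ratio of 0.40 and OAS1 of 0.00, both under the threshold.

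Of 17 NF-kB chemokines and feedback genes, 3 rose and 0 fell (17.6%, against 3.92% of all rows), with a median log2 ratio of 0.27 in ICG-001, 0.05 in DMSO and 0.05 in C646. The 3 were feedback genes that NF-kB induces: the inhibitors NFKBIE (log2 0.85) and NFKBIA (0.69) and the ubiquitin ligase BIRC3 (0.66). BIRC3 had 1965 at 12 h and 3098 at 96 h in ICG-001, 1221 and 1431 in DMSO and 1290.1 and 1448 in C646, so part of its distance from DMSO was present at 12 h. CX3CL1, SRGN and EBI3 are not on that list and were named for the size of their changes. CX3CL1, a membrane-bound chemokine, rose in ICG-001, DMSO and C646, by log2 1.40, 0.65 and 0.96. SRGN, the proteoglycan serglycin, and EBI3, a subunit of interleukins, were opposed. SRGN had 497 at 12 h and 1215 at 96 h in ICG-001, 484 and 312 in DMSO and 409 and 426 in C646, a rise of log2 1.29 beside -0.63 in DMSO. EBI3 went from 275 to 688 in ICG-001, against 258 to 179 in DMSO and 217 to 256 in C646. For both, ICG-001 96 h was the highest of the 6 columns and DMSO 96 h the lowest.

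Some genes of actin fibres and of the TGF-β pathway also rose. TAGLN, an actin-binding protein of contractile cells, had 156 at 12 h and 442 at 96 h in ICG-001, 151 and 144 in DMSO and 175 and 172 in C646. It lay close to the background limit in every column but ICG-001 96 h, where it was 2.83-fold its 12 h signal. MYL9, a myosin light chain, rose by log2 0.99 with -0.46 in DMSO, TPM1, a tropomyosin, by 0.84, and ZYX, zyxin of focal adhesions, by 0.61. Over an actin and contractile list, also written after the values were seen, 4 of 18 rose, 0 fell (22.2%, against 3.92% of all rows), and the median was 0.20 against -0.08 in DMSO. ACTA2, the smooth muscle actin, had a log2 ratio of 0.22. Of 15 TGF-β targets 4 rose and 0 fell (26.7%, against the same 3.92%), with a median log2 of 0.19 and of -0.01 in DMSO. The 4 were the matrix glycoprotein THBS1, the helix-loop-helix inhibitor ID3, and SMAD6 and BAMBI, which restrain the pathway. In 2 of the 15 rows, THBS1 and ID3, the ICG-001 ratio lay 1.5-fold or more above the DMSO ratio. THBS1 went from 256 to 556 in ICG-001, against 291 to 265 in DMSO and 273 to 267 in C646. ID3 had 1532 at 12 h and 3032 at 96 h in ICG-001, 1682 and 1874 in DMSO and 1859 and 798 in C646, so it rose in ICG-001 and fell in C646. CCN2, a matricellular target of YAP and TEAD, rose by log2 0.64, the 1 row of 15 on that list that did. Mesenchymal genes had 0 rises and 0 falls in 7 rows, a list too short to be set apart from the 3.92% of all rows. CDH2 and VIM had log2 ratios of 0.54 and -0.22.

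The largest falls that were flat in DMSO included protein-coding genes and noncoding RNAs. F2RL1, the protease-activated receptor PAR2, had 2924 at 12 h and 1096 at 96 h in ICG-001, 3276 and 3251 in DMSO and 2239 and 2401 in C646. Its other 5 columns lay between 2239 and 3276, whereas ICG-001 96 h lay 2.67-fold below ICG-001 12 h (log2 -1.41). AGR2, a disulfide isomerase of mucus-secreting epithelia, had 2062 at 12 h and 982 at 96 h in ICG-001, 3293 and 2995 in DMSO and 2258 and 2169 in C646, a fall of log2 -1.07 that followed a lower signal than DMSO at 12 h. BCYRN1, a noncoding RNA of neurons and tumours, went from 5559 to 2259 in ICG-001, against 5821 to 5178 in DMSO and 4265 to 4099.7 in C646. TYMSOS, the antisense transcript of thymidylate synthase, went from 577 to 239.8 in ICG-001, against 740.2 to 803 in DMSO and 657 to 652 in C646.

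RGS2 and MYEOV had first stood above DMSO. RGS2, which turns off G protein signals, had 681 at 12 h and 289.5 at 96 h in ICG-001, 367 and 411 in DMSO and 264 and 322 in C646, so its log2 ratio to DMSO was 0.89 at 12 h and -0.51 at 96 h. MYEOV, a gene amplified in some tumours, went from 820.4 to 347 in ICG-001, against 664 to 586 in DMSO and 343 to 316 in C646. HAS3, a hyaluronan synthase, and AKAP12, a scaffold for protein kinase A, fell by log2 1.14 and 1.13 from 12 h signals of 355 and 1769.8, and both were above their DMSO 12 h signals of 279.7 and 1461. GNG11, a G protein γ subunit, and SYTL2, which docks secretory vesicles, fell from 633 to 302 and from 812 to 407, with log2 ratios of -0.13 and -0.17 in DMSO.

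Sterol synthesis genes were lower late in ICG-001, some of them past the threshold, and held or were higher in the other treatments. Cells make cholesterol from acetyl-CoA through mevalonate, squalene and lanosterol, and SREBP2, kept in check by INSIG1, switches the enzymes on together when sterols run low. Of 11 genes from mevalonate to lanosterol, 3 fell and 0 rose (27.3%, against 3.92% of all rows called either way and 1.73% called lower), 10 lay below 0, and the median log2 ratio was -0.36 in ICG-001, 0.05 in DMSO and 0.33 in C646. From lanosterol to cholesterol, 3 of 9 fell and 1 rose (44.4%), with medians of -0.55, 0.26 and 0.42. The difference from DMSO was below 0 for all 20 rows of these lists. Part of the distance from DMSO was there early. The median log2 ratio of ICG-001 to DMSO was -0.29 (early list) and -0.185 (late list) at 12 h, and -0.80 and -0.94 at 96 h.

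The stretches of 180 bases before the start sites of DHCR7, EBP and INSIG1 are shown as falls of the sterol lists that hold the letters searched. Capitals mark CCAAT, or ATTGG on the other strand, the box bound by NF-Y, a known partner of SREBPs at sterol genes. They are from RefSeq, GRCh38.p14, along the gene's strand.
DHCR7: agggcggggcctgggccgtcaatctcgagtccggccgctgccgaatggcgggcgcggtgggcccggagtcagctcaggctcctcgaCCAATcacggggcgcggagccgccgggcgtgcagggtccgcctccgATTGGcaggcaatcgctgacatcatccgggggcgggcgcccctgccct
EBP: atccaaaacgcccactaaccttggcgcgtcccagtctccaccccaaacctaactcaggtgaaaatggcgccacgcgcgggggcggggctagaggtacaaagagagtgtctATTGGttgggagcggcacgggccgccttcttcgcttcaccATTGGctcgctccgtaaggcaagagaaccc
INSIG1: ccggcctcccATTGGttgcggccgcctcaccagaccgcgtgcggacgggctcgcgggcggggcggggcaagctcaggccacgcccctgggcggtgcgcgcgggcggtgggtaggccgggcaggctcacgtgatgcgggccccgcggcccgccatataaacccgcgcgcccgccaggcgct
DHCR7 lies at chr11:71448394-71448573 (minus strand), EBP at chrX:48521628-48521807 (plus strand) and INSIG1 at chr7:155297698-155297877 (plus strand). DHCR7 and EBP had 2 matches each and INSIG1 had 1. In windows of 250 bases, CCAAT on either strand occurred in 9021 of 27305 promoters (33.0%), in 5 of the 7 early and in 7 of the 8 late cholesterol genes with a sequence. Lists of other functions held it at like shares, 89.5% for chaperones of the endoplasmic reticulum, 88.9% for histones and 68.9% for G2/M genes, and FADS1, FADS2 and SCD, lipid genes that also fell, had 0 matches in their 180 bases. TCACNCCAC, a form of the sterol regulatory element, occurred in 0.875% of all promoters and in 0 of these 15; among 12 sterol sensing genes, 10 had a sequence and 1, SREBF2, held it. These letters describe the windows and say nothing of binding.

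DHCR7, the last reductase of cholesterol synthesis, had 986 at 12 h and 452 at 96 h in ICG-001, 1169.9 and 1448 in DMSO and 620.1 and 1232 in C646. ICG-001 96 h was the lowest column, 2.18-fold below ICG-001 12 h, while DMSO and C646 had log2 ratios of 0.31 and 0.99. ACAT2, which joins acetyl-CoA units at the first step, SQLE, the squalene epoxidase, and EBP, the sterol isomerase, had log2 ratios of -0.86, -0.62 and -0.61. TM7SF2, a sterol C14 reductase, was the exception and rose in all treatments, by log2 0.78 in ICG-001, 0.88 in DMSO and 0.92 in C646. HMGCS1, a synthase early in the pathway, had a log2 ratio of 0.04.

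INSIG1, the sterol sensor, had 750.1 at 12 h and 378 at 96 h in ICG-001, 957 and 1153 in DMSO and 737 and 1267 in C646, a fall of log2 0.99 beside 0.27 in DMSO. Its ICG-001 96 h column was the lowest of the 6. Of 9 sterol sensing and uptake rows 2 fell (22.2%, against 3.92% of all rows), INSIG1 among them, and none rose. The transcription factors SREBF1 and SREBF2 had log2 ratios of -0.28 and 0.07. Of 10 efflux and LXR target rows 0 fell and 0 rose, against the same 3.92%. The exporter ABCA1 had -0.41 in ICG-001 and 0.59 in DMSO.

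Fatty acid genes followed the sterol genes in direction. Of 12, 3 fell and 0 rose (25%, against 3.92% of all rows), with medians of -0.35 in ICG-001, 0.08 in DMSO and 0.43 in C646. All that fell were desaturases. FADS1, which makes arachidonic acid, had 1823 at 12 h and 856 at 96 h in ICG-001, 2386 and 2285 in DMSO and 1081 and 1688 in C646, and FADS2, which acts before it, had 294 at 12 h and 148 at 96 h in ICG-001, 311 and 312 in DMSO and 177 and 254 in C646. SCD, which makes oleic acid, had 6365 at 12 h and 4010.1 at 96 h in ICG-001, 7494 and 10713 in DMSO and 5541 and 11801 in C646. ICG-001 96 h was the lowest of the 6 columns for each of these 3 genes, and C646 rose by log2 1.09 for SCD and 0.64 for FADS1. FASN, the fatty acid synthase, had a log2 ratio of -0.53. LIPG, the endothelial lipase, is on none of these lists and was chosen after its values were seen. It went from 670.0 to 312 in ICG-001, against 708 to 860.2 in DMSO and 597 to 782 in C646, and was opposed to DMSO.

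**Figure D3:**
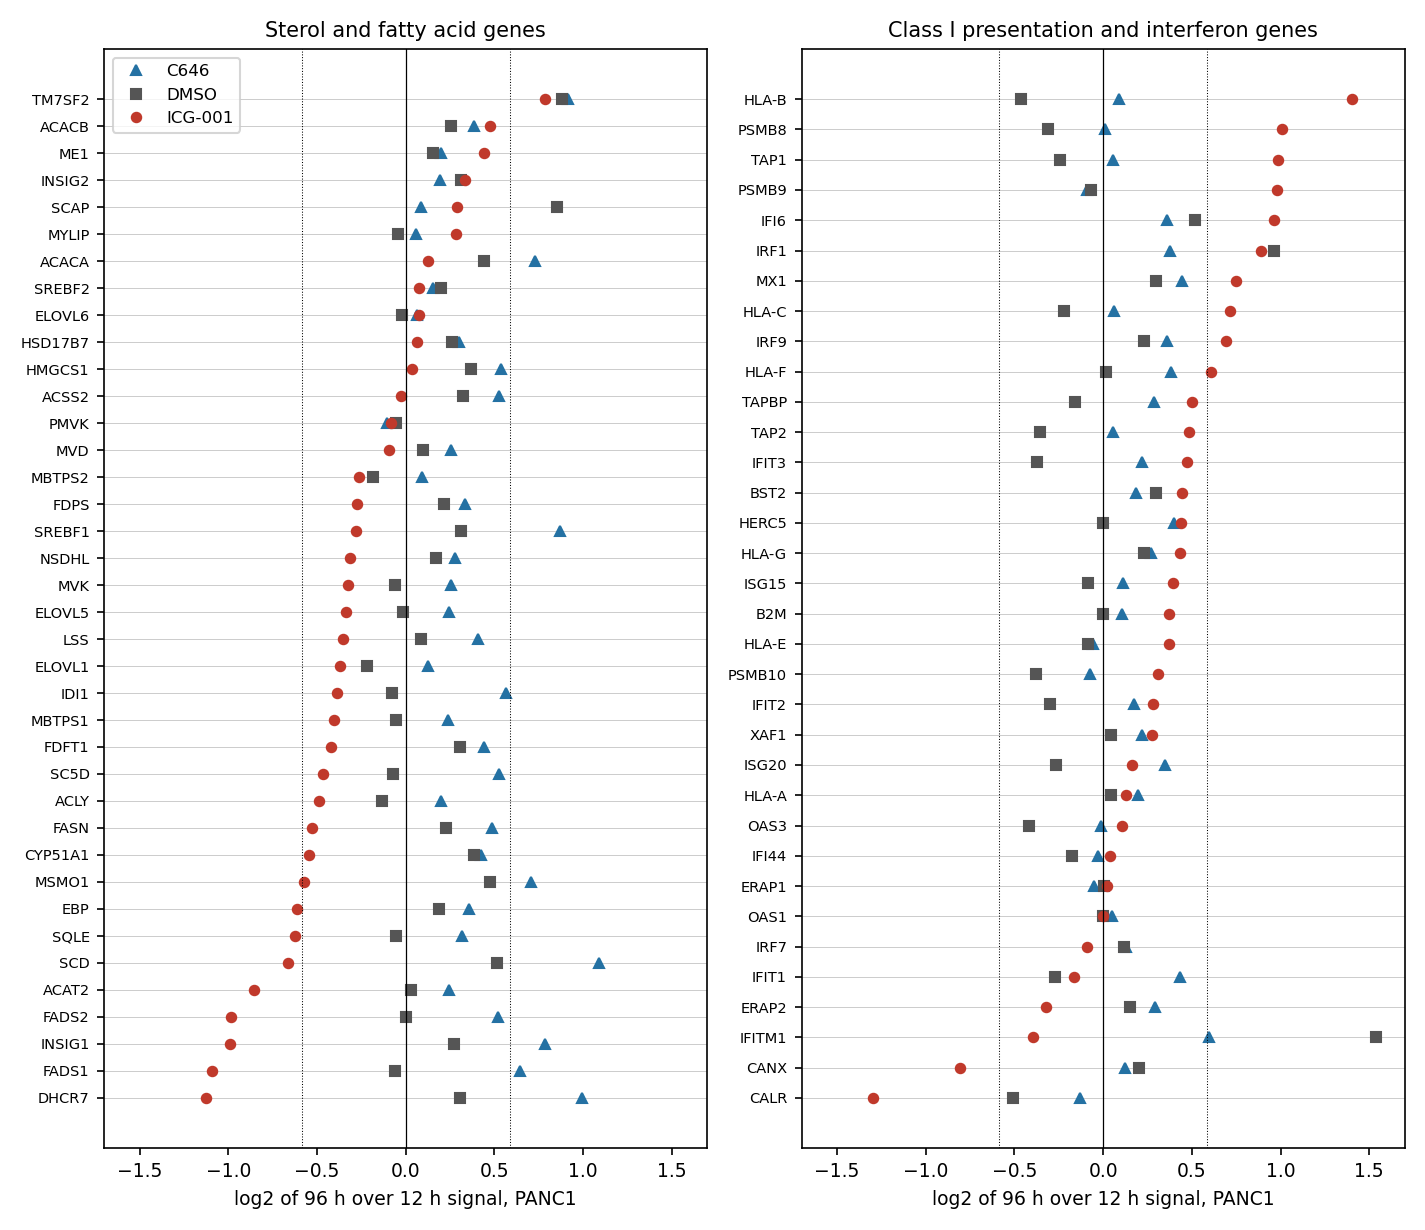
Log2 ratio of 96 h over 12 h signal in ICG-001, DMSO and C646 for sterol and fatty acid genes (left) and class I presentation and interferon-stimulated genes (right) above the limit in PANC1, without a few genes that are not reported here, each point 1 gene in 1 treatment, with dotted lines at 1.5-fold. On the left the ICG-001 points reach -1.13 at DHCR7 while the C646 points lie mostly right of 0, and on the right HLA-B, PSMB8 and TAP1 have ICG-001 points near or above 1 with DMSO points left of 0.

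Chaperones of the endoplasmic reticulum, which fold secreted and membrane proteins, fell in part. Of 19 rows 4 fell and 1 rose (26.3%, against 3.92% of all rows), with a median log2 ratio of -0.14 beside 0.11 in DMSO. CALR, calreticulin, had 2187 at 12 h and 890.3 at 96 h in ICG-001, 3233 and 2270.1 in DMSO and 1589 and 1454 in C646, a fall of log2 1.30 of which DMSO showed -0.51. CANX, calnexin, had 688 at 12 h and 393 at 96 h in ICG-001, 829 and 953 in DMSO and 913 and 995 in C646, and PDIA4, a disulfide isomerase, went from 405 to 236 in ICG-001, against 439.7 to 519 in DMSO and 383 to 442 in C646. HYOU1 had a log2 ratio of -0.75, with -0.37 in DMSO. HERPUD1, part of the degradation machinery of the same organelle, rose by log2 0.60. Cytosolic heat shock genes moved up in ICG-001 in 4 of 13 rows (30.8%, against 3.92% of all rows). The list's median log2 ratio of ICG-001 to DMSO was -0.23 at 12 h and -0.06 at 96 h. The list thus lay below DMSO at 12 h and near its level at 96 h. BAG3 and HSPB1 rose by log2 0.72 and 0.63 in ICG-001. The others were HSPA1A and HSPA1B, near-identical copies that also rose in DMSO, by log2 0.86 and 0.79 there.

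Some epithelial genes fell. Of 16 keratins and junction genes 3 fell and 0 rose (18.8%, against 3.92% of all rows): KRT8 and KRT19, the keratins of simple epithelia, and CLDN7, a tight junction claudin. KRT19 had 7857 at 12 h and 5006 at 96 h in ICG-001, 11325 and 11273 in DMSO and 11062 and 11748 in C646, so the ICG-001 columns were below DMSO at both times. KRT8 fell by log2 0.81, with -0.34 in DMSO, and its pseudogene row KRT8P9, which shares its sequence, fell in both. CLDN7 had 549 at 12 h and 331 at 96 h in ICG-001, 368 and 489 in DMSO and 354 and 536 in C646, a fall in ICG-001 beside a DMSO log2 ratio of 0.41. EPCAM had a log2 ratio of -0.49. In the secretory list, AGR2 fell while S100P, a calcium-binding protein, and MUC1, a membrane mucin, rose by log2 0.63 and 0.62. COL5A2, a fibrillar collagen chain, fell by log2 0.90 from a 12 h signal above DMSO.

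Most cell cycle genes were lower at 96 h in both treatments, few of them past the threshold. Of 54 G2/M genes 8 fell and 0 rose (14.8%, against 3.92% of all rows called either way and 1.73% called lower), 48 lay below 0, and the median log2 ratio was -0.31, beside -0.15 in DMSO and -0.15 in C646. TPX2, a spindle assembly factor, had 3327 at 12 h and 1602 at 96 h in ICG-001, 4471 and 2877 in DMSO and 2320.0 and 2001 in C646. TOP2A, the topoisomerase of dividing cells, had a log2 ratio of -0.76 with -0.36 in DMSO, and ANLN, a cytokinesis scaffold, -0.78 with -0.60. CENPF and CENPE, of the kinetochore, had -0.67 and -0.73 in ICG-001 and 0.14 and -0.04 in DMSO. Of 42 S phase genes 5 fell (11.9%), with the same median of -0.16 in ICG-001 and in DMSO. MCM5, a subunit of the replicative helicase, went from 747 to 379 in ICG-001, against 946 to 828 in DMSO and 701 to 652 in C646, and RRM2, of ribonucleotide reductase, had -0.94 in ICG-001, -0.50 in DMSO and -0.56 in C646. Of 13 histone rows 0 fell and 0 rose (against 3.92% of all rows), yet the medians were -0.25 in ICG-001 and 0.28 in DMSO. Among cyclins, CCNA2 fell by log2 0.63 and CCND2 rose by 0.80. CDKN1A, the inhibitor p21, had 651 at 12 h and 928 at 96 h in ICG-001, 551 and 857 in DMSO and 1006 and 1007 in C646, with log2 0.51 in ICG-001 and 0.64 in DMSO.

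**Figure D4:**
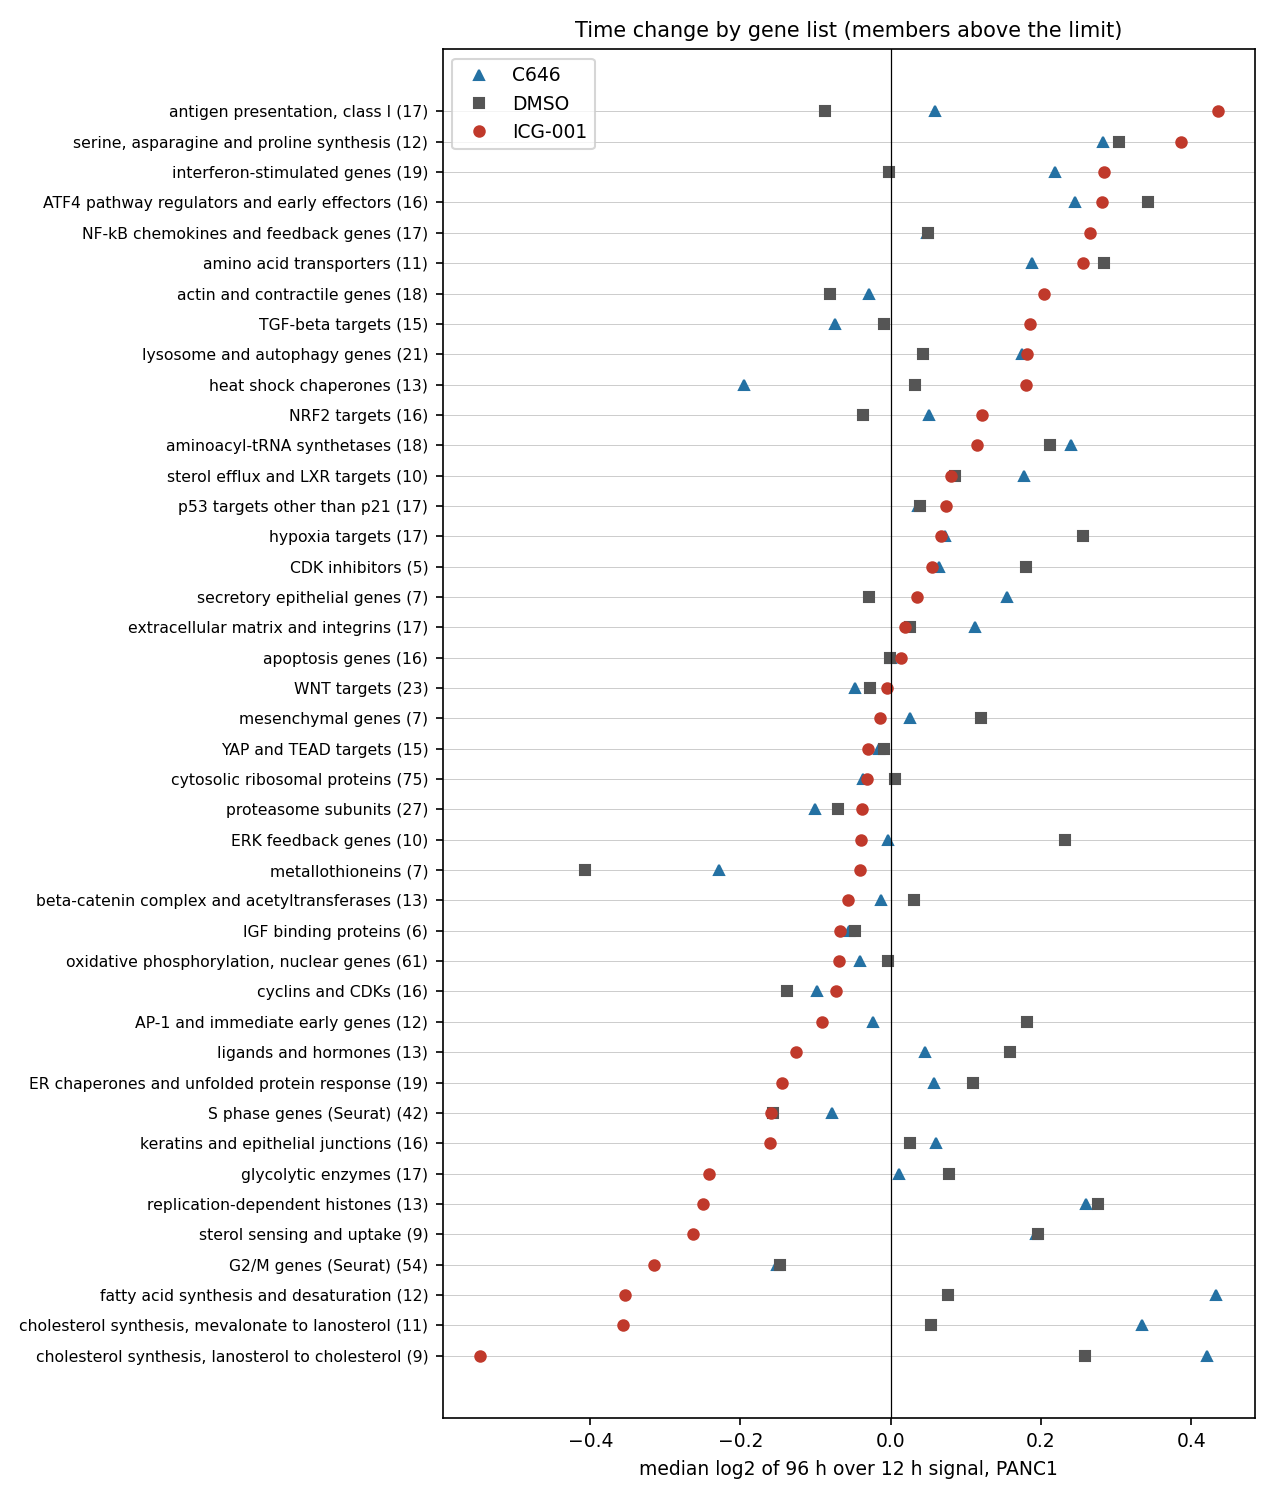
Median log2 ratio of 96 h over 12 h signal in ICG-001, DMSO and C646 for each gene list in PANC1, with the number of rows above the limit in brackets; the class I and actin lists were written after the values were seen. Both cholesterol lists and the fatty acid list lie lowest in ICG-001 and right of 0 in the other treatments, and the amino acid and ATF4 lists lie right of 0 in all 3.

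Several genes of amino acid supply rose in ICG-001 and in DMSO alike. ATF4 is the transcription factor of the integrated stress response, and it drives genes that make and import amino acids. Of 12 genes of serine, asparagine and proline synthesis 4 rose and 0 fell in ICG-001 (33.3%, against 3.92% of all rows). In DMSO 4 rose, where 1.31% of all rows changed and 0.977% were higher. The medians were 0.39 in ICG-001 and 0.30 in DMSO. PHGDH, the first enzyme of serine synthesis, had 4332 at 12 h and 9935 at 96 h in ICG-001, 1252 and 3339 in DMSO and 2209 and 4076 in C646. Each treatment rose, and ICG-001 started 1.79 (log2) above DMSO at 12 h and stood 1.57 above it at 96 h. PSAT1, the next enzyme, had log2 ratios of 1.00 in ICG-001 and 1.05 in DMSO, and CBS, of cysteine synthesis, 0.73 and 0.81. GPT2, a mitochondrial transaminase, rose by 0.96, with 0.54 in DMSO.

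Of 16 regulators and early effectors of the ATF4 pathway 2 rose in ICG-001 (12.5%, against 3.92% of all rows). In DMSO 5 rose, where 1.31% of all rows changed and 0.977% were higher. None fell in either treatment. TRIB3, a pseudokinase, had 2427 at 12 h and 3832 at 96 h in ICG-001, 366 and 895 in DMSO and 539 and 1259 in C646, and DDIT4, an inhibitor of mTORC1, had 4112 at 12 h and 6886 at 96 h in ICG-001, 1321 and 3197 in DMSO and 1749 and 3415 in C646. NUPR1, a small chromatin-associated stress protein, had 859.6 at 12 h and 1169 at 96 h in ICG-001, 217 and 497 in DMSO and 206 and 334 in C646, so its log2 ratio was 0.44 in ICG-001 and 1.19 in DMSO. In these 3 genes the ICG-001 12 h column stood above the DMSO 12 h column, by log2 2.73, 1.64 and 1.99, and the time change was larger in DMSO than in ICG-001. SLC7A5, the importer of large neutral amino acids, had 5225 at 12 h and 6239 at 96 h in ICG-001, 1702 and 3454 in DMSO and 4118 and 4732 in C646, and was flat in ICG-001. Of 11 transporter rows 1 rose, SLC1A4 (log2 0.61), and of 18 tRNA synthetase rows 1 rose, WARS1 (0.71), which interferon also induces. STC2, a secreted glycoprotein hormone, rose by like amounts, log2 1.11 in ICG-001 and 1.12 in DMSO.

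Other large shared rises were TCEA3, a transcription elongation factor, with 344 at 12 h and 957 at 96 h in ICG-001, 337 and 637 in DMSO and 640.0 and 786 in C646, and MXRA5, a matrix protein, with 475 at 12 h and 1318 at 96 h in ICG-001, 359 and 697 in DMSO and 754 and 1321 in C646. MAN2B2, a lysosomal mannosidase, SYT11, a synaptotagmin, and SNORD3D, a U3 small nucleolar RNA with several near-identical copies, rose by log2 1.30, 1.26 and 1.47 in ICG-001 and 0.65, 1.04 and 1.12 in DMSO. Shared falls were led by H2AX, the histone variant of DNA damage signalling, with 839.7 at 12 h and 306 at 96 h in ICG-001, 1260.1 and 652 in DMSO and 474 and 402 in C646. Its DMSO 12 h signal was the highest and ICG-001 96 h the lowest. ANPEP, an aminopeptidase, RNU4ATAC, a small nuclear RNA of the minor spliceosome, YWHAE, a 14-3-3 protein, and EFTUD2, a spliceosomal GTPase, had log2 ratios of -1.28, -1.28, -1.12 and -1.06 in ICG-001 and -0.74, -1.04, -1.02 and -0.65 in DMSO. For these 5 genes DMSO 12 h was the highest of the 6 columns. PKM, pyruvate kinase, fell by log2 0.93 with -0.78 in DMSO. It was the 1 fall among 17 glycolytic genes (5.88%, near the 3.92% of all rows), whose median was -0.24 against 0.08.

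Some large changes fell between these classes and were chosen for mention after their values were seen. LAMP3, a lysosomal membrane protein of mature dendritic cells, went from 236 to 1074 in ICG-001, against 172 to 209 in DMSO and 172 to 233 in C646. CCM2L, a scaffold of endothelial signalling, went from 533 to 2952 in ICG-001, against 336 to 478 in DMSO and 758 to 1072 in C646, and LHPP, a histidine phosphatase, from 255 to 914 in ICG-001, against 207 to 275 in DMSO and 339 to 405 in C646. In each of these 3, DMSO had a log2 ratio of 0.51 or less and ICG-001 one of 1.84 or more. SNHG9, a small nucleolar RNA host gene, had the largest fall of all rows compared, from 1305 to 416 in ICG-001, against 1482 to 1107 in DMSO and 885 to 838 in C646 (log2 -1.65).

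In 7 rows both treatments changed 1.5-fold in opposite directions. GDF15, a stress-induced hormone of the TGF-β family, had 4346 at 12 h and 2485 at 96 h in ICG-001, 1427 and 3779.5 in DMSO and 824 and 1893 in C646. At 12 h the drug column stood log2 1.61 above DMSO, and at 96 h it stood at -0.60, after a fall of 0.81 in ICG-001 and a rise of 1.41 in DMSO. ANGPTL4, a secreted inhibitor of lipoprotein lipase, went from 1110.2 to 659.6 in ICG-001, against 697 to 1446 in DMSO and 1106 to 1406 in C646, and its log2 ratio to DMSO passed from 0.67 to -1.13. SNORA12, a small nucleolar RNA, went from 309 to 187 in ICG-001, against 289 to 594 in DMSO and 613 to 790.0 in C646. IER3, an early response gene, had 3420.4 at 12 h and 2031 at 96 h in ICG-001, 2099 and 3286 in DMSO and 2918 and 2929 in C646. The others were SRGN, RNY4, a small cytoplasmic RNA, and MIR1974, a row that matched no current gene.

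Genes that rose in DMSO and stayed within 1.2-fold in ICG-001 included members of sugar metabolism. ALDOC, an aldolase, had 233 at 12 h and 197 at 96 h in ICG-001, 208 and 561 in DMSO and 297 and 424 in C646. PFKFB4, which sets the level of fructose 2,6-bisphosphate, had 208 at 12 h and 202 at 96 h in ICG-001, 229 and 504 in DMSO and 299 and 484 in C646. In both, DMSO and C646 were higher at 96 h and ICG-001 was not. RAB26, a vesicle GTPase, and CCDC106 had DMSO log2 ratios of 1.03 and 0.92 beside 0.23 and 0.02 in ICG-001. ULBP1, a ligand of natural killer cells, had 371 at 12 h and 409 at 96 h in ICG-001, 146 and 301 in DMSO and 171 and 265 in C646, so its ICG-001 signal was already above DMSO at 12 h. Of the 162 rows higher in DMSO, 54 were of this kind, and of the 55 lower rows 14 stayed within 1.2-fold in ICG-001. Most rows of any kind did so, since 3876 of 17896 changed by 1.2-fold or more in ICG-001. Of 17 hypoxia targets 1 rose and 1 fell in ICG-001 (11.8%, against 3.92% of all rows), with medians of 0.07 in ICG-001 and 0.26 in DMSO. P4HA2, a collagen hydroxylase, rose by log2 1.01 and SLC2A1, the glucose transporter GLUT1, fell by log2 0.94. SLC2A1 had 851 at 12 h and 444 at 96 h in ICG-001, 582 and 752 in DMSO and 698 and 791 in C646.

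Of 13 genes of the β-catenin complex and the acetyltransferases, 0 rose and 0 fell. With 3.92% of all rows called, 0 calls in so short a list do not set it apart. CREBBP had 727 at 12 h and 857 at 96 h in ICG-001, 548 and 599 in DMSO and 633 and 610.0 in C646, and EP300 had 326 at 12 h and 293 at 96 h in ICG-001, 362 and 319 in DMSO and 269 and 259.5 in C646. CTNNB1 had a log2 ratio of -0.06 and TCF7L2 of -0.29, beside -0.19 in DMSO for the latter. Of 23 WNT targets 2 rose and 1 fell (13.0%, against 3.92% of all rows). DLL1, a Notch ligand (log2 0.96), and CCND2 rose, and FOSL1, an AP-1 subunit (log2 -0.78), fell. Part of this list was chosen by the study on these samples. DKK1, a secreted WNT antagonist, had 5263 at 12 h and 3623 at 96 h in ICG-001, 5080.4 and 6006 in DMSO and 4525 and 4618 in C646, under the threshold in both treatments. MYC had log2 ratios of -0.06 and 0.28.

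Other lists held few changes, beside 3.92% of all rows, and 0 calls in a short list do not set it apart. Oxidative phosphorylation had 0 rises and 0 falls in 61 rows, the proteasome 0 and 0 in 27, and the lysosome list 0 and 0 in 21. Ribosomal proteins fell in 2 of 75 rows, RPL29 and RPS7. The ERK feedback, IGF binding protein and CDK inhibitor lists had 0 changed rows. GADD45A, a p53 target of growth arrest, rose by log2 0.97 with 0.04 in DMSO, and was with GDF15 the p53 target past the threshold among 17. SRXN1, an NRF2 target that repairs peroxiredoxins, rose by log2 0.89 (-0.00 in DMSO), and PGD, of the pentose phosphate pathway, fell by log2 0.61, in 16 rows. Among 7 metallothioneins MT1M rose by log2 0.97 with -0.52 in DMSO. BIRC3 was the 1 of 16 apoptosis genes that rose.

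The 12 h columns show how much of each distance from DMSO was there early. These ratios share columns with the time changes and are given as a description. Over all rows, ICG-001 and DMSO differed 1.5-fold either way in 434 of 17416 at 12 h and 1284 of 17407 at 96 h. The share of all rows that differed 1.2-fold was not counted. Of the 393 rises in ICG-001, 238 lay within 1.2-fold of DMSO at 12 h, 145 were already at least 1.2-fold above it and 10 at least 1.2-fold below. At 96 h, 284 stood 1.5-fold or more above DMSO. Of the 309 falls, 131 lay within 1.2-fold of DMSO at 12 h, 154 were already below it and 24 above it, and 230 stood 1.5-fold or more below DMSO at 96 h. Among the 215 rises flat in DMSO, 159 were within 1.2-fold of DMSO at 12 h, against 14 of the 48 shared rises, of which 33 were already above DMSO. CCL5, IL32 and TAGLN belonged to the former kind, and PHGDH, PSAT1 and IRF1 to the latter.

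C646 changed fewer rows with time than ICG-001: 84 of 17590 (0.478%), 70 higher (0.398%) and 14 lower (0.0796%). Of the 393 rises in ICG-001, 22 also rose in C646 and 1 fell, and of the 309 falls 3 fell and 9 rose. Across 17896 rows the Pearson r of the ICG-001 and C646 time changes was 0.24 (rho 0.20), with no shared column but a shared line and schedule. In HCT116 the ICG-001 ratio reached 1.5-fold in 1069 of 15374 rows above the limit in both lines (6.95%), higher in 641 (4.17%) and lower in 428 (2.78%). Of 353 PANC1 rises among them 102 (28.9%) rose in HCT116 and 5 fell, and of 296 PANC1 falls 52 (17.6%) fell and 10 rose. The Pearson r was 0.34 (rho 0.33), and with the HCT116 DMSO time change it was 0.19 (rho 0.18). BACE2 and CYB5A rose in HCT116 too, by log2 1.02 and 1.11, beside 0.10 and 0.11 in HCT116 DMSO. CCL5 had 0.02 there, beside 0.04 in HCT116 DMSO, and IL32 was under the background limit. TAGLN fell there with -1.87, beside -0.57 in HCT116 DMSO, and MYL9 fell with -0.97. DHCR7 and INSIG1 had log2 ratios of -0.31 and -0.41 in HCT116, under the threshold, and SQLE fell there, with -0.81.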

How the data were processed

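Total RNA from cultured PANC1 and HCT116 cells was labelled and hybridized to Illumina HumanHT-12 BeadChips. The deposited table holds linear signal intensity, with 1 row for each gene name. By the methods, the authors applied quantile normalization in GenomeStudio, did not subtract background, and averaged replicate arrays, so ratios of dim genes understate their change. Each of the 12 groups, read from the labels, had 1 column, and the number of arrays behind it limits the precision.

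Log2 signals were subtracted between columns. A row entered when 1 or more of the columns compared exceeded the limit, and was called at a ratio of at least 1.5. Where 1 signal is at or under its limit, a fold is the brighter signal over the limit. Of 34687 rows, 17755 carried a current RefSeq symbol (assembly GRCh38.p14), 3305 an older one, 7 a former symbol matched by hand, 2669 matched by LOC identifier, 137 fitted several genes and 10814 matched none. The row with the highest mean signal stood for a gene with several rows.

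The members, lists and thresholds were chosen with earlier results of these data known. Named were the 12 largest rises and 12 largest falls flat in DMSO, 6 and 6 shared, 6 opposed, 6 changed in DMSO and flat in ICG-001, up to 4 of each list, and CREBBP, EP300, CTNNB1, TCF7L2, MYC, NUPR1, CDKN1A and DKK1. A few genes that this rule or a list names are not reported here. The interferon element was searched after the values were seen, the other motifs were chosen with the lists. Alternatives were thresholds of 1.2 and 2, a limit at 5 SD, no filter, a filter in every column, normexp with an offset of 16 and quantile normalization, centring, quantile normalization over 12 columns, and C646 in place of DMSO. Python 3.11.15 with numpy 2.4.6, pandas 2.3.3 and scipy 1.17.1 was run, with limma 3.58.1 under R 4.3.3, and the procedure was tested on simulated data.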

Additional observations from a re-analysis of the deposited data

Results flagged for a closer look

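Genes whose time change in PANC1 passed 1.5-fold upward in 1 treatment and downward in the other were singled out; with 1 column per group the difference was not tested. The log2 ICG-001 time change minus the log2 DMSO time change was -2.21 for GDF15, -1.80 for ANGPTL4, -1.76 for SNORA12 and -1.40 for IER3. It was 1.92 for SRGN and 1.19 for RNY4, whose own ratios of 0.59 in ICG-001 and -0.60 in DMSO lie at the threshold. The remaining row, MIR1974, matched no current gene and had a difference of -1.93.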

How the results depend on the processing

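Counts moved with the threshold and with normexp and quantile normalization, which were applied together (normexp below). Some list medians close to 0 changed sign. With the limit at 5 SD, ICG-001 medians went from 0.07 to -0.03 for hypoxia targets and from 0.08 to -0.04 for sterol efflux. The WNT difference from DMSO went from 0.003 to -0.003. Directions of called list medians further from 0 held except where named. ICG-001 time changes numbered 3876 at 1.2-fold (1927 higher, 1949 lower), 92 at 2-fold (61, 31) and 2002 with normexp (1091, 911), against 702. DMSO time changes numbered 2535, 29 and 878, and differences 4165 (1840 above 0, 2325 below), 107 (55, 52) and 2479 (1256, 1223). In the same order, shared rows were 990, 6 and 216, rows flat in DMSO 2709, 41 and 1042, and opposed rows 177, 8 and 175. The flat share was 69.9% at 1.2-fold, against 53.3%. With normexp, the early cholesterol median was -0.50 and its difference from DMSO -0.60, the late cholesterol median -0.64, and the NF-kB median 0.42. With C646 in place of DMSO, an alternative chosen after seeing the data that leaves out the DMSO 12 h column, 84 rows changed in the reference, 25 were shared and 71.1% were flat, the median differences were -0.76 for early and -0.97 for late cholesterol genes, and the amino acid transporter difference turned to 0.055 from -0.28. Of 557 list medians recomputed, 500 stayed within the spread of background rows, 56 moved beyond it and 1 reversed; of 336 values of named genes 289 stayed, 47 moved and 0 reversed. No paired analysis was possible because each group is 1 averaged column, and for the same reason no replicate could be left out. Background left in the signal limits folds of genes near the limit.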
